A study of Mus with 15 samples.

Results

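Sorted mouse thymocytes of the BST2-positive gate were compared with CD25+ progenitors of regulatory T cells (Tregs), in 6 of the 15 bulk RNA libraries of the study. The Bst2+ libraries (3) came from live thymocytes that stained for CD4 and the beta chain of the T cell receptor (TCR), lacked CD8 and CD73, and carried BST2 together with CD25, FOXP3 or both. The CD25+ progenitor libraries (3) came from cells with the same TCR beta, CD4, CD8 and CD73 criteria that carried CD25 but neither BST2 nor FOXP3. All cells came from female mice 6 weeks old of a C57Bl/6 x Foxp3-GFP strain, in which a green fluorescent reporter marks Foxp3 expression. The thymus was dissociated mechanically and depleted of CD8+ cells with magnets before the sort. The 3 other gates (conventional CD4 single-positive cells, FOXP3lo progenitors and mature Tregs, 3 libraries each) serve here as points of orientation. Libraries are numbered 40, 42 and 43 after the 3 biological replicates of 1 sort. The labels do not say whether a replicate is 1 mouse or a pool, so p-values measure the spread between these samples. Because the sort let FOXP3+ cells into the Bst2+ gate and kept them out of the CD25+ gate, a difference in Foxp3, Il2ra or Bst2 is in part set by the gates.

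A thymocyte assembles its receptor genes with the recombinase encoded by Rag1 and Rag2, and Dntt adds untemplated bases at the joints. These genes are active in the CD4 and CD8 double-positive stage and are shut off after positive selection. Strong TCR signals then steer some CD4 single-positive cells toward the Treg fate, through CD25+ or FOXP3lo precursors. BST2 (tetherin) is a membrane protein induced by interferon and is also known as a marker of plasmacytoid dendritic cells, while thymic macrophages take up dying thymocytes.

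The libraries held 10816064, 12928802 and 15616995 assigned counts in the Bst2+ gate, against 15465318, 19016884 and 18207819 in the CD25+ gate. Fewer genes had a count in the Bst2+ libraries (14685, 16436 and 17198) than in the CD25+ libraries (19902, 19741 and 19921; exact two-sided permutation test, p = 0.1, the smallest that 3 against 3 can give). Mitochondrial ribosomal RNA took 19%, 19.6% and 14.1% of counts in the Bst2+ libraries, against 9.93%, 9.66% and 9.59% in the CD25+ libraries (p = 0.1 by the same exact permutation test). The biological coefficient of variation between replicates was 0.829 in the Bst2+ gate, 0.1703 in the CD25+ gate and 0.131 to 0.197 in the 3 other gates. The Bst2+ libraries stood apart in genes detected and in spread, whereas their totals overlapped those of the CD25+ gate (exact permutation test, p = 0.2). The part of these differences in the results below was not tested. Levels are in CPM (assigned counts scaled to a common library total), and fold changes are log2 values of Bst2+ over CD25+ with their standard error (SE). In bulk RNA, fewer cells of a type and less RNA per cell cannot be told apart.

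Of 14100 genes tested, 950 (6.74%) differed at an adjusted p under 0.05 (edgeR quasi-likelihood test, Benjamini-Hochberg adjustment), which is what called means here. In the Bst2+ gate 651 (4.62%) were higher and 299 (2.12%) lower, and 504 (3.57%) and 155 (1.1%) were higher and lower by over 2-fold. The shares of 4.62% and 2.12% are the background for every count of called list members below. Among the called genes, 0 had libraries that overlapped between the gates. Over all genes tested, the 3 Bst2+ libraries were above the 3 CD25+ libraries for 15.1% of genes and below them for 17%. Of the 651 higher genes, 186 were under 1 CPM in all 3 CD25+ libraries and 83 had no count there. Of the 299 lower genes, 12 were under 1 CPM in all 3 Bst2+ libraries and 8 had no count there. The filter on low counts admits a gene present in only 1 gate, so such genes were tested through the gate where they are high. These counts therefore have no weight of their own. The median fold change over all genes tested was 0.02 (log2). The size of the count rests on how spread is shared. A fit over all 15 libraries, in which the 3 other gates narrow the estimate, gave 3875 calls, with 1716 higher and 2159 lower. A weighted fit that gave each gate its own spread (limma-voom) gave 1008 higher and 359 lower. Leaving out CD25+ replicate 40, 42 or 43 left 3 of 5 libraries from the wider gate and gave 369, 296 and 268 calls. Leaving out Bst2+ replicate 40, 42 or 43 gave 1367, 1117 and 1428.

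**Figure D1:**
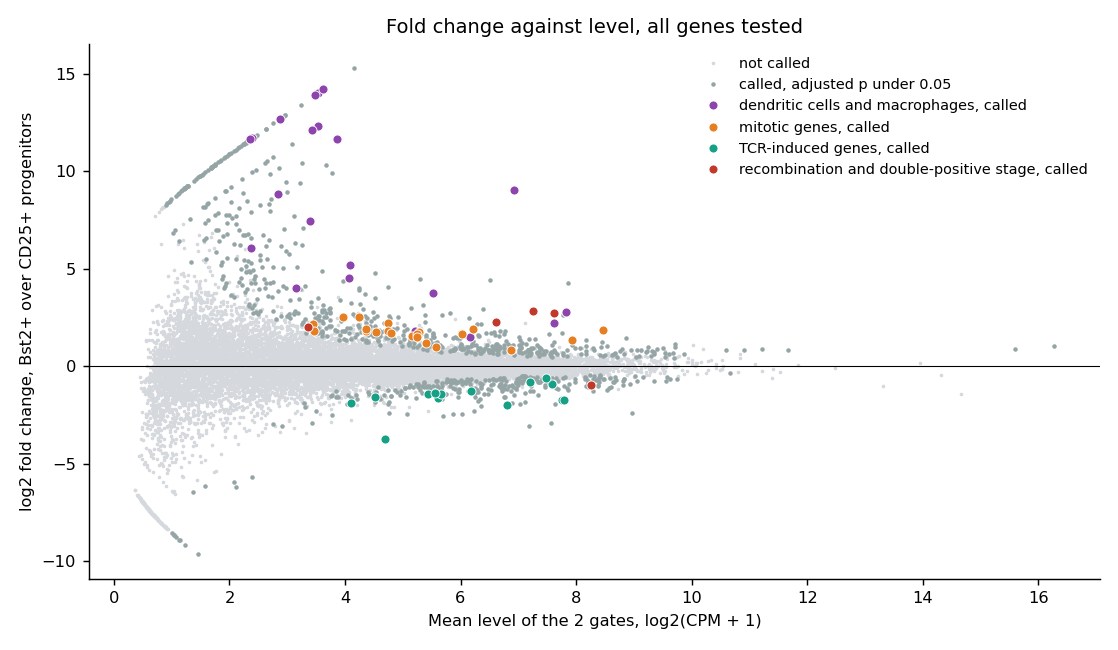
Each point is 1 of the 14100 genes tested, with the mean level of both gates in log2(CPM + 1) on the x axis and the log2 fold change of Bst2+ over CD25+ progenitors on the y axis. Coloured points are called members of 4 gene lists: macrophage genes reach the top left, mitotic genes and, apart from Sox4, recombination genes lie above 0 at moderate to high levels, and TCR-induced genes lie below 0. The diagonal edges at both sides are genes with no count in 1 of the gates, whose fitted fold change has no fixed meaning.

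The gate proteins' own transcripts gave a mixed picture. Bst2 (ENSMUSG00000046718, chr8:71534255-71537456, GRCm38) had 50.9, 18.6 and 15.8 CPM in the Bst2+ libraries, against 12.5, 12.2 and 16.9 CPM in the CD25+ libraries. Its transcript was high in Bst2+ replicate 40, while the other 2 Bst2+ libraries lay within or near the CD25+ range, and it did not pass the test (log2 1.04 ± 0.47; adjusted p = 0.256). The 3 other gates averaged 14.2 (conventional cells), 12.3 (FOXP3lo progenitors) and 15.1 CPM (mature Tregs), so transcript level did not separate the Bst2+ gate as the surface stain did. Il2ra, which encodes CD25, had 264, 309.8 and 165 CPM in the Bst2+ libraries, against 292, 278 and 287 CPM in the CD25+ libraries, with overlapping gates (log2 −0.22 ± 0.21; adjusted p = 0.642). Foxp3, the transcription factor that defines Tregs, had 9.202, 28.2 and 40.5 CPM in the Bst2+ libraries, against 4.16, 1.797 and 3.56 CPM in the CD25+ libraries. Every Bst2+ library was above every CD25+ library (log2 3.04 ± 0.61; adjusted p = 0.0252), yet far from the mean of 291 ± 16.2 CPM in FOXP3lo progenitors and 600.2 ± 59.5 CPM in mature Tregs (SD, n = 3 each). The Foxp3 call was lost without most single libraries (adjusted p 0.0578 and 0.0572 without Bst2+ replicate 42 and 43 and 0.0743, 0.115 and 0.11 without CD25+ replicate 40, 42 and 43).

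Both gates carried the receptor and lineage genes of CD4 T cells. Cd4 had 571, 491 and 759 CPM in the Bst2+ libraries, against 666, 669 and 693 CPM in the CD25+ libraries (adjusted p = 0.656). Cd8a and Cd8b1, the CD8 chains that the sort excluded, stayed under 44 CPM in all 6 libraries and overlapped between gates. Of 26 genes of T lineage identity, all tested, 3 were higher and 3 lower, with a median fold change of −0.13. The higher count was 5, 4 and 3 without Bst2+ replicate 40, 42 or 43, and 2, 1 and 1 without CD25+ replicate 40, 42 or 43. Calls over these genes, higher and lower, numbered 6 and 8 in the fit over all 15 libraries, 4 and 4 with limma-voom, and 6 and 7 at an unadjusted p under 0.05. Thy1, a surface glycoprotein of thymocytes, had 307, 345 and 247 CPM in the Bst2+ libraries, against 135, 126 and 118 CPM in the CD25+ libraries (log2 1.25 ± 0.15; adjusted p = 0.00304). Cd5 and Cd6, receptors that damp TCR signalling and follow its strength, were lower in Bst2+ cells. Cd5 had 203, 237 and 246 CPM in the Bst2+ libraries, against 369, 442 and 444 CPM in the CD25+ libraries (log2 −0.87 ± 0.13; adjusted p = 0.00684), and Cd6 had 159, 217 and 228 CPM in the Bst2+ libraries, against 383, 452 and 447 CPM in the CD25+ libraries (log2 −1.09 ± 0.16; adjusted p = 0.0066). The kinase gene Zap70 was also lower (log2 −1.16 ± 0.22), a call lost at adjusted p 0.053 without Bst2+ replicate 42 and 0.0617 and 0.0904 without CD25+ replicate 42 and 43. Cd3g was higher (log2 0.99 ± 0.17; adjusted p 0.0666 and 0.0599 without CD25+ replicate 42 and 43), as was the TCR constant gene Trbc1 (log2 0.65 ± 0.12; adjusted p 0.136, 0.139 and 0.0965 without CD25+ replicate 40, 42 and 43), whose reads may be shared with its near-identical copy Trbc2. Trbc2 did not pass the test (log2 0.34 ± 0.17; adjusted p = 0.302).

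The recombination genes Rag1, Rag2 and Dntt were higher in Bst2+ cells. Rag1 (ENSMUSG00000061311, chr2:101638282-101649501), 1 of the subunits of the recombinase, had 336, 538 and 327 CPM in the Bst2+ libraries, against 71.95, 59.5 and 40.4 CPM in the CD25+ libraries. Dntt (ENSMUSG00000025014, chr19:41029275-41059525), which encodes terminal deoxynucleotidyl transferase, had 511, 658 and 355 CPM in the Bst2+ libraries, against 88.9, 78.3 and 59.9 CPM in the CD25+ libraries. All 3 Bst2+ libraries were above all 3 CD25+ libraries for both genes, with replicate 42 the highest of the Bst2+ gate. Rag1 was higher by log2 2.80 ± 0.27 (adjusted p = 0.00134) and Dntt by log2 2.75 ± 0.25 (adjusted p = 9.27e-04), and both calls held in each fit that left out 1 library. The CD25+ level was itself above the rest of the series, since Rag1 averaged 2.57, 2.25 and 2.61 CPM in conventional cells, FOXP3lo progenitors and mature Tregs, and Dntt 25.2, 4.61 and 8.45 CPM. The 2 gates were chosen because both carry immature thymocyte transcripts, so their place above the 3 other gates was known beforehand. Arpp21, a gene of immature thymocytes that encodes a phosphoprotein regulated by cyclic AMP, had 201, 289.8 and 139.9 CPM in the Bst2+ libraries, against 53.1, 42.6 and 37.8 CPM in the CD25+ libraries (log2 2.24 ± 0.27; adjusted p = 0.00336). Rag2, the partner of Rag1, had 24.5, 18.4 and 11.8 CPM in the Bst2+ libraries, against 4.95, 5.49 and 2.98 CPM in the CD25+ libraries. Its direction was the same in every library (log2 2.02 ± 0.47; adjusted p = 0.0415), but the call was lost in 5 of the 6 fits that left out 1 library (adjusted p 0.0555 and 0.0628 without Bst2+ replicate 40 and 42 and 0.164, 0.154 and 0.211 without CD25+ replicate 40, 42 and 43, and 0.0507 with the replicate block). Ptcra, the invariant alpha chain of the pre-TCR, had 28.3, 26.04 and 5.66 CPM in the Bst2+ libraries, against 4.58, 4.14 and 3.77 CPM in the CD25+ libraries. The gates did not overlap, but replicate 43 of the Bst2+ gate was close to the CD25+ range and Ptcra did not pass the test (log2 2.26 ± 0.61; adjusted p = 0.0674).

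Most other genes of the double-positive stage did not pass the test. Of 22 genes of recombination and the double-positive stage, all tested, 4 were higher (Rag1, Rag2, Dntt and Arpp21) and 1 was lower, against 4.62% and 2.12% of all genes, and the median fold change was 0.39. The count of higher genes was 4, 3 and 7 without Bst2+ replicate 40, 42 or 43, and 3, 3 and 3 without CD25+ replicate 40, 42 or 43. Calls over the list numbered 7 and 3 in the fit over all 15 libraries, 7 and 1 with limma-voom, and 9 and 2 at an unadjusted p under 0.05 (higher and lower). Sox4, a transcription factor of lymphocyte precursors, was the lower one, with 218, 218 and 220.0 CPM in the Bst2+ libraries, against 388, 443 and 443 CPM in the CD25+ libraries (log2 −0.96 ± 0.11; adjusted p = 0.00213). Its Bst2+ libraries were nearly level with each other and with the conventional mean of 215 CPM. Cd24a, a surface antigen lost during maturation, had 103, 128 and 88.03 CPM in the Bst2+ libraries, against 91.2, 105 and 102 CPM in the CD25+ libraries, and the gates overlapped. Themis, which tunes TCR signals during selection, had 257, 266 and 248 CPM in the Bst2+ libraries, against 209, 193 and 175 CPM in the CD25+ libraries, a gap too small for a call.

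**Figure D2:**
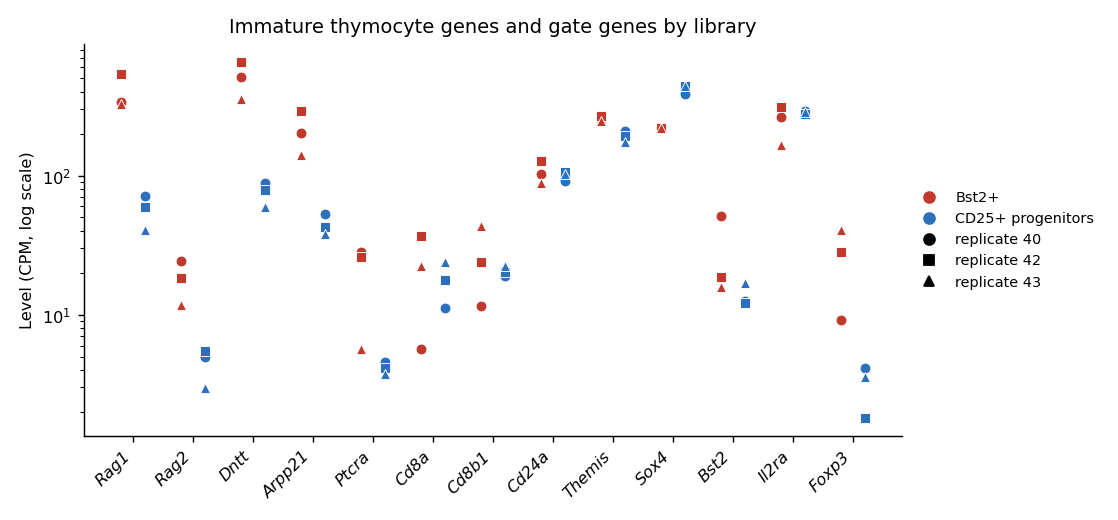
Levels in CPM on a log axis, 1 point per library, for genes of immature thymocytes (Rag1 to Sox4) and gate genes (Bst2, Il2ra, Foxp3), with Bst2+ in red at the left of each pair, CD25+ progenitors in blue, and symbols for replicates. Rag1, Dntt and Arpp21 are separated by a wide gap, whereas Cd8a, Cd8b1, Cd24a and Il2ra overlap between the gates. Libraries at 0 CPM are not drawn, and for the genes shown here there are none.

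Most mitotic genes were higher in Bst2+ cells. Of 34 mitotic genes, all tested, 21 were higher and 0 lower, with a median fold change of 1.65. Higher and lower members numbered 27 and 0 in the fit over all 15 libraries, 25 and 0 with limma-voom, and 30 and 0 at an unadjusted p under 0.05. Mki67, a marker of cycling cells, had 761, 698 and 546 CPM in the Bst2+ libraries, against 233, 165 and 157 CPM in the CD25+ libraries (log2 1.85 ± 0.19; adjusted p = 0.00164). Birc5 (survivin, part of the chromosomal passenger complex) had 37.8, 40.6 and 46.9 CPM in the Bst2+ libraries, against 7.76, 8.64 and 5.75 CPM in the CD25+ libraries (log2 2.50 ± 0.29; adjusted p = 0.00235). Top2a, the topoisomerase that untangles sister chromatids, had 319, 452 and 385 CPM in the Bst2+ libraries, against 179, 149.6 and 134 CPM in the CD25+ libraries (log2 1.32 ± 0.17; adjusted p = 0.0038). All 3 genes had Bst2+ levels above every CD25+ library and kept their call without any 1 library. Cenpf, a kinetochore gene, and Tpx2, a spindle gene, were higher by log2 1.90 ± 0.25 and 1.54 ± 0.21 (adjusted p = 0.00447 and 0.00512). The mitotic count was 24, 19 and 23 without Bst2+ replicate 40, 42 or 43, and 12, 8 and 6 without CD25+ replicate 40, 42 or 43, always with 0 lower. Conventional cells averaged 201 CPM of Mki67, FOXP3lo progenitors 62.7 and mature Tregs 68.2, so the Bst2+ libraries had the highest Mki67 level of the 5 gates. The sum over the 34 genes ordered the other gates differently. It was 3898, 3879 and 3424 CPM in the Bst2+ libraries and 1983, 1756 and 1652 CPM in the CD25+ libraries. FOXP3lo progenitors had 3001 to 3211 CPM, mature Tregs 2278 to 2310 CPM and conventional cells 1708 to 1854 CPM. The mitotic genes named here do not carry the FOXP3lo sum. Top2a averaged 50.4 CPM in FOXP3lo progenitors against 182 CPM in conventional cells, Cenpf 14.7 against 43.5, Tpx2 6.49 against 20.7 and Birc5 3.23 against 12.4. The high FOXP3lo sum comes from other members of the list, so it is no measure of cycling in that gate.

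Of 35 genes of the MCM helicase and DNA replication, 9 were higher and 0 lower, with a median of 0.72. Higher and lower members numbered 17 and 1 in the fit over all 15 libraries, 11 and 0 with limma-voom, and 18 and 1 at an unadjusted p under 0.05. Uhrf1, which carries DNA methylation through replication, had 181, 275 and 194 CPM in the Bst2+ libraries, against 86.2, 67.6 and 74.8 CPM in the CD25+ libraries (log2 1.51 ± 0.19; adjusted p = 0.0038). Ccne2, a cyclin of the entry into S phase, had 24.9, 26.3 and 24.3 CPM in the Bst2+ libraries, against 5.99, 3.99 and 2.83 CPM in the CD25+ libraries, nearly level within the Bst2+ gate (log2 2.56 ± 0.40; adjusted p = 0.00825, and 0.0603 and 0.0538 without CD25+ replicate 42 and 43). Rrm2, Tyms and Mcm10, which act in nucleotide supply and origin firing, were higher by log2 1.38, 1.47 and 1.87, and their calls were lost at adjusted p 0.0674, 0.0941 and 0.0846 without CD25+ replicate 40, 42 and 43 for Rrm2, 0.0673, 0.109 and 0.0924 without CD25+ replicate 40, 42 and 43 for Tyms and 0.0817 and 0.102 without CD25+ replicate 40 and 43 for Mcm10. The count of higher replication genes was 14, 7 and 11 without Bst2+ replicate 40, 42 or 43, and 3, 2 and 1 without CD25+ replicate 40, 42 or 43. Replication-dependent histone genes, whose transcripts lack a poly(A) tail and are read here because the kit captures total RNA, gave 6 higher and 0 lower of 24 tested (25 matched), with a median of 1.39. Calls in the 2 directions numbered 13 and 0 in the fit over all 15 libraries, 9 and 0 with limma-voom, and 14 and 0 at an unadjusted p under 0.05. H1f4, a linker histone, had 197, 318 and 191 CPM in the Bst2+ libraries, against 89.2, 80.02 and 98.00 CPM in the CD25+ libraries (log2 1.402 ± 0.21; adjusted p = 0.00819). The histone count was 7, 3 and 9 without Bst2+ replicate 40, 42 or 43, and 1, 1 and 1 without CD25+ replicate 40, 42 or 43, and reads of these near-identical genes may be split among copies. Hmgb2, a chromatin protein abundant in proliferating cells and in thymocytes, had 595, 409 and 278 CPM in the Bst2+ libraries, against 90.2, 93.5 and 75.1 CPM in the CD25+ libraries (log2 2.31 ± 0.26; adjusted p = 0.00247).

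TCR-induced genes were lower in part in Bst2+ cells. Of 28 tested (30 matched), 14 were lower and 0 higher, with a median fold change of −1.22. Nr4a3, an orphan nuclear receptor induced by TCR stimulation, had 113, 139.5 and 109.5 CPM in the Bst2+ libraries, against 383, 399.7 and 411 CPM in the CD25+ libraries (log2 −1.72 ± 0.13; adjusted p = 4.24e-04). Nr4a1, its relative Nur77, had 80.2, 124 and 149.7 CPM in the Bst2+ libraries, against 336, 376 and 453 CPM in the CD25+ libraries (log2 −1.72 ± 0.23; adjusted p = 0.00472). Conventional cells averaged 108 ± 8.297 CPM of Nr4a3 and 155 ± 10.7 CPM of Nr4a1 (SD, n = 3), and for Nr4a1 every Bst2+ library lay below that mean. Rgs16, a brake on G protein signals, had 2.91, 7.57 and 9.16 CPM in the Bst2+ libraries, against 74.8, 91.1 and 93.8 CPM in the CD25+ libraries (log2 −3.71 ± 0.40; adjusted p = 0.002). Dusp5, a phosphatase of ERK, had 47.6, 71.6 and 47.8 CPM in the Bst2+ libraries, against 191, 204 and 257 CPM in the CD25+ libraries (log2 −1.97 ± 0.21; adjusted p = 0.00188). Nfat5, of the NFAT family, had 142, 140.2 and 136 CPM in the Bst2+ libraries, against 266, 278 and 239 CPM in the CD25+ libraries (log2 −0.90 ± 0.11; adjusted p = 0.00364). The 5 genes did not overlap between gates, and Nfat5 was the most even within the Bst2+ gate. The count of lower genes was 16, 13 and 14 without Bst2+ replicate 40, 42 or 43, and 8, 5 and 5 without CD25+ replicate 40, 42 or 43. Higher and lower members numbered 0 and 20 in the fit over all 15 libraries, 0 and 17 with limma-voom, and 0 and 18 at an unadjusted p under 0.05. Summed over the list, the level was 1589, 1829 and 1831 CPM in the Bst2+ libraries, 3183, 3325 and 3465 CPM in the CD25+ libraries and 2088 to 2893 CPM in the 9 libraries of the 3 other gates.

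The Treg precursor signature was split. Of 23 tested members (29 matched), 8 were lower and 3 higher, with a median of −0.69. Tnfrsf9 (4-1BB, a costimulatory receptor) had 37.5, 57.3 and 52.5 CPM in the Bst2+ libraries, against 372, 415 and 468 CPM in the CD25+ libraries (log2 −3.09 ± 0.19; adjusted p = 2.31e-04). Ikzf2, which encodes Helios, a transcription factor of thymic Tregs, had 169, 288 and 199 CPM in the Bst2+ libraries, against 1094, 1179 and 1166 CPM in the CD25+ libraries (log2 −2.39 ± 0.19; adjusted p = 5.70e-04). Tnfrsf1b (TNF receptor 2) had 57.5, 68.4 and 58.1 CPM in the Bst2+ libraries, against 203, 212 and 260.1 CPM in the CD25+ libraries (log2 −1.88 ± 0.15; adjusted p = 5.70e-04), and Swap70 had 72.3, 66.2 and 82.1 CPM in the Bst2+ libraries, against 154, 180.1 and 163 CPM in the CD25+ libraries (log2 −1.17 ± 0.14; adjusted p = 0.00323). These 4 genes separated the gates fully and kept their calls without any 1 library. Their Bst2+ levels differed in how far they stood from conventional cells, whose means were 36.7 CPM for Tnfrsf9, 54.9 for Tnfrsf1b, 95.5 for Ikzf2 and 36.02 for Swap70. Penk, which encodes proenkephalin, had 1.45, 5.62 and 3.05 CPM in the Bst2+ libraries, against 35.8, 19.6 and 21.6 CPM in the CD25+ libraries, and its call was lost without any 1 CD25+ library (adjusted p 0.12, 0.0617 and 0.0748 without CD25+ replicate 40, 42 and 43). Entpd1, the gene of the ecto-enzyme CD39, went the other way, with 45.7, 27.1 and 70.99 CPM in the Bst2+ libraries, against 0.306, 1.15 and 0.314 CPM in the CD25+ libraries (adjusted p = 0.00174). Macrophages express Entpd1 as well, and their markers were higher in the same libraries, as given below; their part was not tested. Mature Tregs averaged 5.903 CPM of Entpd1. The count of lower signature genes was 9, 7 and 8 without Bst2+ replicate 40, 42 or 43, and 5, 5 and 5 without CD25+ replicate 40, 42 or 43. Signature genes called higher and lower numbered 6 and 10 in the fit over all 15 libraries, 3 and 8 with limma-voom, and 4 and 10 at an unadjusted p under 0.05.

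NF-κB genes, which act downstream of TNF receptors and CD28 in Treg precursors, were lower in part. Of 26 tested (27 matched), 7 were lower and 1 was higher, with a median of −0.44. Nfkb1, the p105 and p50 subunit, had 219, 306 and 272 CPM in the Bst2+ libraries, against 546, 567 and 583 CPM in the CD25+ libraries (log2 −1.09 ± 0.14; adjusted p = 0.00371). Nfkb2, the p100 and p52 subunit, had 58.4, 65.02 and 61.1 CPM in the Bst2+ libraries, against 158, 199 and 199 CPM in the CD25+ libraries (log2 −1.59 ± 0.15; adjusted p = 9.27e-04). Both stood clear of the CD25+ libraries in every replicate. Rel, the c-Rel subunit, had 121, 107 and 141 CPM in the Bst2+ libraries, against 222, 218 and 214 CPM in the CD25+ libraries, and Bcl3, an NF-κB cofactor, had 24.7, 35.2 and 27.6 CPM in the Bst2+ libraries, against 64.7, 63.5 and 65.9 CPM in the CD25+ libraries. Rel (log2 −0.83 ± 0.14) lost its call at adjusted p 0.0575, 0.0638 and 0.0591 without CD25+ replicate 40, 42 and 43, and Bcl3 (log2 −1.15 ± 0.20) at adjusted p 0.0831, 0.0895 and 0.0972 without CD25+ replicate 40, 42 and 43. The higher member was Cd74, the invariant chain of MHC class II, with 81.5, 140.3 and 131 CPM in the Bst2+ libraries, against 36.1, 45.2 and 44.8 CPM in the CD25+ libraries (log2 1.48 ± 0.23; adjusted p = 0.00895), a gene of antigen-presenting cells that the macrophage list also holds. The count of lower genes in this list was 6, 7 and 10 without Bst2+ replicate 40, 42 or 43, and 2, 2 and 2 without CD25+ replicate 40, 42 or 43. Over the NF-κB list, calls in the 2 directions numbered 1 and 14 in the fit over all 15 libraries, 1 and 6 with limma-voom, and 1 and 11 at an unadjusted p under 0.05.

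Genes of IL-2 and STAT5 signalling, which upholds CD25+ precursors, moved in both directions. Of 24 tested, 4 were lower and 3 higher, with a median of −0.31, and the count of lower genes was 6, 4 and 4 without Bst2+ replicate 40, 42 or 43, and 3, 3 and 1 without CD25+ replicate 40, 42 or 43. Calls in the 2 directions numbered 4 and 9 in the fit over all 15 libraries, 3 and 5 with limma-voom, and 4 and 9 at an unadjusted p under 0.05. Il2rb, the beta chain shared by the IL-2 and IL-15 receptors, had 14.9, 34.6 and 68.9 CPM in the Bst2+ libraries, against 159, 158 and 179 CPM in the CD25+ libraries (log2 −2.06 ± 0.46), and its call was lost at adjusted p 0.085 without Bst2+ replicate 42 and 0.084, 0.098 and 0.119 without CD25+ replicate 40, 42 and 43. Without Bst2+ replicate 43, the highest of the Bst2+ gate, its fold change was −2.74. Jak3, the kinase of the common gamma chain, was lower by log2 −1.41 ± 0.20 (adjusted p = 0.00657, and 0.0517 without CD25+ replicate 43). Il7r, the IL-7 receptor alpha chain, was higher, with 174, 226 and 212 CPM in the Bst2+ libraries, against 71.4, 61.7 and 39.5 CPM in the CD25+ libraries (log2 1.83 ± 0.23; adjusted p = 0.00373), still under the conventional mean of 344 CPM. The death and survival genes that differed were lower, with both pro-apoptotic and anti-apoptotic genes among them. Of 27 death and survival genes tested (28 matched), 3 were lower and 0 higher. Bcl2l1, which encodes the anti-apoptotic Bcl-xL, had 50.5, 56.2 and 48.1 CPM in the Bst2+ libraries, against 132, 137 and 142 CPM in the CD25+ libraries (log2 −1.41 ± 0.14; adjusted p = 0.00134). Bcl2l11, which encodes the pro-apoptotic BIM, averaged 72.9 ± 21.6 CPM in the Bst2+ libraries and 260.0 ± 32.3 CPM in the CD25+ libraries (SD, n = 3 each; log2 −1.83 ± 0.22; adjusted p = 0.00316). Fas, a death receptor, was lower by log2 −1.65 ± 0.24 (adjusted p = 0.0066). Without Bst2+ replicate 42 or 43, 1 and 2 of these 27 genes were called higher, and higher and lower members numbered 4 and 4 in the fit over all 15 libraries, 1 and 3 with limma-voom, and 3 and 5 at an unadjusted p under 0.05.

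**Figure D3:**
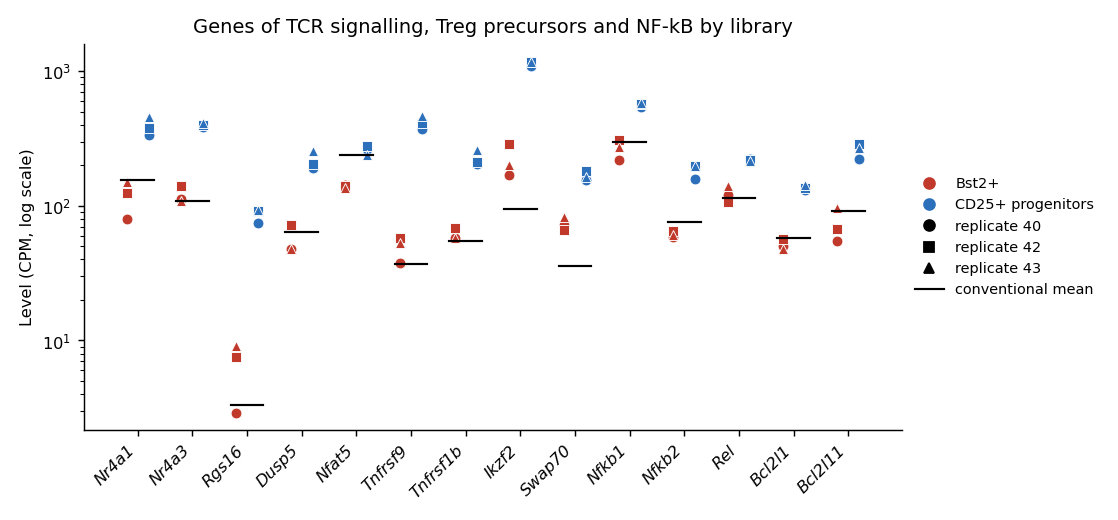
Levels in CPM on a log axis, 1 point per library, with Bst2+ in red at the left of each pair and CD25+ progenitors in blue. The 14 called genes are of TCR induction, the Treg precursor signature, NF-κB, and cell death and survival. Black lines mark the mean of the 3 conventional CD4 single-positive libraries. For these genes each Bst2+ library lies below each CD25+ library.

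Other called genes with at least 20 CPM in both gates were taken from both ends of the fold changes, after their values were seen. Their 2 directions are set by that choice. Lad1 (ladinin) had 26.4, 98.7 and 81.4 CPM in the Bst2+ libraries, against 488, 517 and 534 CPM in the CD25+ libraries (log2 −2.89 ± 0.41; adjusted p = 0.00622), and Arhgap20, a GTPase-activating protein, had 70.9, 125 and 105 CPM in the Bst2+ libraries, against 383, 406 and 378 CPM in the CD25+ libraries (log2 −1.96 ± 0.20; adjusted p = 0.00161). Rora, a nuclear receptor gene of innate and effector lymphocytes, had 21.6, 28.6 and 12.8 CPM in the Bst2+ libraries, against 120.4, 129.5 and 115 CPM in the CD25+ libraries (log2 −2.54 ± 0.28; adjusted p = 0.00235), with a conventional mean of 26.7 CPM. Trib1, Colq and Ptger4 (a prostaglandin E2 receptor) were lower by log2 −2.43 ± 0.27, −2.43 ± 0.34 and −1.79 ± 0.17 (adjusted p = 0.00235, 0.0054 and 9.27e-04). Dusp4, a phosphatase of ERK, and Tbc1d4, of glucose transporter traffic, were lower by log2 −2.31 and −1.93. The Dusp4 call was lost at adjusted p 0.0641 without Bst2+ replicate 42 and 0.0563, 0.0661 and 0.0821 without CD25+ replicate 40, 42 and 43, and that of Tbc1d4 at adjusted p 0.0525 without Bst2+ replicate 42 and 0.0592 and 0.0604 without CD25+ replicate 42 and 43. On the higher side, Crip1, a small LIM protein gene, had 177, 183 and 66.2 CPM in the Bst2+ libraries, against 21.2, 20.7 and 22.2 CPM in the CD25+ libraries (log2 2.73 ± 0.37; adjusted p = 0.00474). Gmfg, an actin regulator of blood cells, had 269, 139.7 and 81.9 CPM in the Bst2+ libraries, against 33.7, 28.9 and 26.6 CPM in the CD25+ libraries (log2 2.46 ± 0.39; adjusted p = 0.0103, and 0.0566 without CD25+ replicate 43).

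The lowest fold changes belonged to genes nearly missing from the Bst2+ gate. Slc35d3, of a nucleotide sugar transporter family, had no count in the Bst2+ libraries, against 3.97, 7.84 and 7.48 CPM in the CD25+ libraries. It was at least 84.0-fold lower, computed against a floor of 3 counts over the 3 Bst2+ libraries. This fold covers counting error only and not the spread between the Bst2+ libraries. A gene can be at 0 in 1 of them and well present in another, as with Polg2 (0, 26.3 and 0.636 CPM). Prr5l, which encodes a partner of mTOR complex 2, had 0.291, 0.244 and 0.127 CPM in the Bst2+ libraries, against 14.1, 10.3 and 16.6 CPM in the CD25+ libraries (log2 −5.94 ± 0.70; adjusted p = 0.00279). Kifc3, a kinesin gene, had 0, 0 and 1.02 CPM in the Bst2+ libraries, against 19.1, 18.4 and 21.5 CPM in the CD25+ libraries, and Plagl1, a zinc finger gene, had 0, 0 and 0.254 CPM in the Bst2+ libraries, against 8.74, 7.54 and 5.02 CPM in the CD25+ libraries. Without Bst2+ replicate 43, the 1 library with counts, both had no count in the gate. Bcat1, an enzyme of branched-chain amino acids, was lower by log2 −2.52 ± 0.42, and Slc16a3, a lactate transporter, had 3.87, 1.95 and 0.445 CPM in the Bst2+ libraries, against 17.2, 15.3 and 19.7 CPM in the CD25+ libraries. Fdxr, which encodes ferredoxin reductase, had 1.45, 0.57 and 3.63 CPM in the Bst2+ libraries, against 13.6, 12.5 and 18.6 CPM in the CD25+ libraries. All but Prr5l of these genes lost the call in some fits. The adjusted p was 0.0864, 0.154 and 0.153 without CD25+ replicate 40, 42 and 43 for Slc35d3, 0.102, 0.116 and 0.14 without CD25+ replicate 40, 42 and 43 for Kifc3 and 0.0521 without Bst2+ replicate 42 and 0.228, 0.221 and 0.174 without CD25+ replicate 40, 42 and 43 for Plagl1 (and 0.054 with the replicate block). It was 0.0699 and 0.0762 without CD25+ replicate 42 and 43 for Bcat1, 0.0803 without Bst2+ replicate 42 and 0.164, 0.16 and 0.213 without CD25+ replicate 40, 42 and 43 for Slc16a3 and 0.0626 without Bst2+ replicate 40 and 0.173, 0.172 and 0.261 without CD25+ replicate 40, 42 and 43 for Fdxr. Without Bst2+ replicate 40 the fold change of Slc16a3 was −3.89, and without replicate 43 that of Fdxr was −3.90.

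Genes of late maturation and egress were higher in part. Of 39 tested (44 matched), 14 (35.9%) were higher and 1 (2.56%) lower, with a median of 0.41. Of the 14 higher members, 1 would not have passed the filter on low counts on the CD25+ libraries alone. Emb (embigin) had 252, 193 and 176 CPM in the Bst2+ libraries, against 84.05, 76.8 and 81.2 CPM in the CD25+ libraries (log2 1.36 ± 0.16; adjusted p = 0.00306). Ms4a4b, of a membrane protein family of T cells, had 297, 202 and 252 CPM in the Bst2+ libraries, against 109, 99.9 and 78.6 CPM in the CD25+ libraries (log2 1.39 ± 0.18; adjusted p = 0.0046). Both genes separated the gates fully, and conventional cells averaged 210.3 CPM of Emb and 258 CPM of Ms4a4b. Itga4, the alpha4 integrin, had 381, 374 and 372 CPM in the Bst2+ libraries, against 217, 238 and 202 CPM in the CD25+ libraries (log2 0.78 ± 0.11; adjusted p = 0.00517, and 0.0513 without CD25+ replicate 43). The count of higher genes was 15, 15 and 15 without Bst2+ replicate 40, 42 or 43, and 6, 5 and 4 without CD25+ replicate 40, 42 or 43, and that of lower genes 1, 0 and 4 without Bst2+ replicate 40, 42 or 43, and 0, 0 and 0 without CD25+ replicate 40, 42 or 43. Calls in the 2 directions numbered 18 and 6 in the fit over all 15 libraries, 17 and 1 with limma-voom, and 18 and 5 at an unadjusted p under 0.05. Higher recombinase levels and higher levels of some of these late genes stood in the same bulk libraries, and a bulk level cannot say whether the same cells held both.

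Interferon-stimulated genes were examined because BST2 is one of them. Of 63 tested (65 matched), 12 were higher and 0 lower, with a median of 0.39. Summed over the list, the level was 5829, 4798 and 5291 CPM in the Bst2+ libraries and 4500.0, 4101 and 4299 CPM in the CD25+ libraries. Both ranges lay under the 6154 to 10010.0 CPM of the 3 other gates. Gbp3, a guanylate-binding GTPase, had 29.6, 25.6 and 27.4 CPM in the Bst2+ libraries, against 5.68, 4.19 and 5.96 CPM in the CD25+ libraries (log2 2.38 ± 0.33; adjusted p = 0.00493). Ifi204, of the interferon-inducible DNA sensors, had 20.4, 5.94 and 14.4 CPM in the Bst2+ libraries, against 0.0611, 0 and 0 CPM in the CD25+ libraries, so it was nearly missing from the CD25+ gate (adjusted p = 0.00403). Ifi203, Ifi209 and Gbp7 were higher by log2 1.13 ± 0.17, 0.81 ± 0.14 and 1.46 ± 0.25. They lost their calls at adjusted p 0.0586 and 0.0566 without CD25+ replicate 42 and 43 for Ifi203, 0.0956 and 0.0911 without CD25+ replicate 42 and 43 for Ifi209 and 0.069 and 0.0743 without CD25+ replicate 42 and 43 for Gbp7. The count of higher genes was 9, 11 and 12 without Bst2+ replicate 40, 42 or 43, and 6, 2 and 2 without CD25+ replicate 40, 42 or 43. Higher and lower members numbered 23 and 5 in the fit over all 15 libraries, 13 and 1 with limma-voom, and 19 and 5 at an unadjusted p under 0.05. With the replicate block they numbered 11 and 1. Reads of the Ifi200 and Gbp families may be shared among close copies. Of 22 interferon receptor and signal genes tested (23 matched), 1 was higher and 1 lower (1 and 2 with the replicate block). In the main fit that is 4.55% each way, against 4.62% higher and 2.12% lower over all genes, so the counts say little about the list. Ifngr1, a chain of the interferon gamma receptor, had 124, 153 and 126 CPM in the Bst2+ libraries, against 53.4, 39.2 and 44.8 CPM in the CD25+ libraries (log2 1.55 ± 0.17; adjusted p = 0.00235). Ifnar1, of the type I receptor, had 96.8, 109.9 and 168 CPM in the Bst2+ libraries, against 172, 177 and 177 CPM in the CD25+ libraries and did not pass the test (adjusted p = 0.208). Irf4, which TCR signals induce, was lower by log2 −1.26 ± 0.24, a call lost at adjusted p 0.0784, 0.0929 and 0.0911 without CD25+ replicate 40, 42 and 43.

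The largest fold changes were those of macrophage genes. Of 30 markers of dendritic cells and macrophages, 23 passed the filter on low counts, and 21 of these were higher and 0 lower. Of the 21, 13 would not have passed it on the CD25+ libraries alone, so this count has no weight of its own. Summed over all 30 markers, the level was 5647, 3462 and 6419 CPM in the Bst2+ libraries, 244, 266 and 288 CPM in the CD25+ libraries and 284 to 464 CPM in the 3 other gates. Of the 30, 9 had no count in any CD25+ library. Apoe (chr7:19696109-19699188), an apolipoprotein secreted by macrophages, had 2911, 1586 and 3065 CPM in the Bst2+ libraries, against 4.52, 5.29 and 4.71 CPM in the CD25+ libraries (log2 9.02 ± 0.32; adjusted p = 1.41e-05). The complement subunit gene C1qa had 135, 86.9 and 172 CPM in the Bst2+ libraries and no count in the CD25+ libraries, which makes it at least 2500-fold higher. Lyz2, a lysozyme of myeloid cells, had 116, 94.2 and 162 CPM, at least 2360-fold higher, and Vcam1, an adhesion molecule of thymic macrophages, had 313, 180.2 and 456 CPM, at least 6090-fold higher. Mertk, a receptor for the uptake of dying cells, had 48.5, 41.5 and 67.3 CPM, at least 999-fold higher. These folds use a floor of 3 counts over the 3 CD25+ libraries and cover counting error only. Replicate 42 had the lowest level of the 3 Bst2+ libraries for each of these 5 genes. Higher and lower calls among the 30 markers numbered 21 and 0 in the fit over all 15 libraries, 21 and 0 with limma-voom, and 21 and 0 at an unadjusted p under 0.05.

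Further genes named for their fold change had no count in the CD25+ libraries. C1qc had 144, 122 and 187 CPM in the Bst2+ libraries, at least 2850-fold higher, and Igf1, a growth factor, 53.1, 43.7 and 82.4 CPM, at least 1150-fold higher. Hpgd, an enzyme that breaks down prostaglandins, had 117, 45.7 and 99.04 CPM, and Lpl, a lipoprotein lipase, 73.7, 22.6 and 83.5 CPM. The transporter gene Abcc3 had 51.1, 33.5 and 91.3 CPM, Apoc1 67.2, 42.8 and 48.2 CPM and the cathepsin gene Ctsh 71.8, 12.1 and 50.6 CPM. These 5 were at least 1610-, 1130-, 1150-, 955- and 813-fold higher. C1qb and Sirpa had 1 count in the CD25+ gate, and 116, 126 and 152 CPM of C1qb and 90.1, 69.99 and 180.3 CPM of Sirpa in the Bst2+ libraries. Genes also present in the CD25+ libraries were higher by less. Selenop, a selenium carrier, had 1107, 542 and 1344 CPM in the Bst2+ libraries, against 51.4, 56.8 and 49.6 CPM in the CD25+ libraries (log2 4.25 ± 0.32; adjusted p = 4.24e-04). The lysosomal protease genes Ctsb, Ctss and Ctsc were higher by log2 2.76 ± 0.24, 2.23 ± 0.28 and 2.16 ± 0.20 (adjusted p = 6.92e-04, 0.0038 and 9.42e-04). Sdc3, a proteoglycan, and Glul, glutamine synthetase, were higher by log2 2.60 ± 0.30 and 2.16 ± 0.26 (adjusted p = 0.00283 and 0.00331). Some of the dendritic cell markers on the list stood low. Xcr1 had 0, 0 and 1.27 CPM, Clec9a 0.484, 0.163 and 0 CPM, Batf3 0, 0.244 and 0 CPM and Flt3 2.81, 1.71 and 0 CPM in the Bst2+ libraries. These genes are a part of the list, of which 21 of 23 tested members were higher, among them Sirpa. Their levels cannot tell whether other dendritic cells were present.

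Among the 3 Bst2+ libraries, the summed level of the macrophage list was lowest in replicate 42 (3462 CPM, against 5647 and 6419 CPM in replicates 40 and 43). Rag1 and Dntt were highest in replicate 42, while Rag2 and Ptcra were highest in replicate 40. How much of any difference came from RNA of other cells in the Bst2+ gate was not tested.

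**Figure D4:**
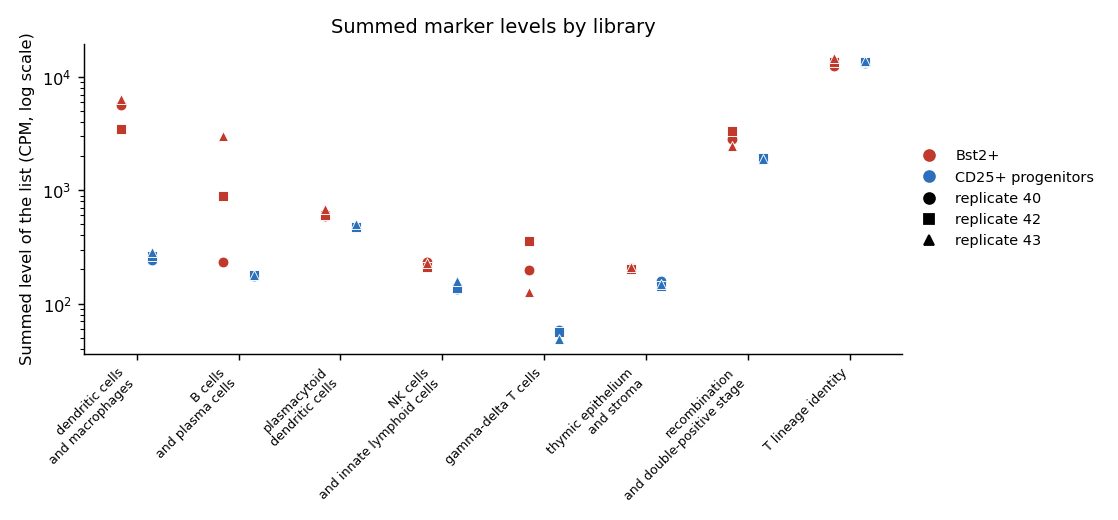
Summed level in CPM of the members of 8 gene lists, on a log axis, with 1 point per library, Bst2+ in red at the left of each pair and CD25+ progenitors in blue. The T lineage identity sum overlaps between the gates, and each of the other sums is higher in every Bst2+ library than in every CD25+ library. Most of the stroma sum is Pecam1, with a mean of 150 CPM in the Bst2+ and 115 CPM in the CD25+ libraries. Pecam1 overlaps between the gates and was not called. The stroma sum is 204.8 to 335.2 CPM in the 3 other gates, which are not drawn. The B and plasma cell sum runs from 233.7 to 3004 CPM among the Bst2+ libraries.

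B and plasma cell transcripts differed between the Bst2+ libraries themselves. Summed over 25 markers, their level was 234, 899.9 and 3004 CPM in Bst2+ replicates 40, 42 and 43, against 174, 177 and 177 CPM in the CD25+ libraries. Ighm, the mu heavy chain, had 61.2, 395 and 780.5 CPM in the Bst2+ libraries, against 20.97, 17.7 and 18.9 CPM in the CD25+ libraries (log2 4.43 ± 0.78; adjusted p = 0.0142). Its call was lost at adjusted p 0.0666 and 0.0738 without CD25+ replicate 42 and 43 and at 0.23 with the replicate block, and its fold change was 3.57 without Bst2+ replicate 43. Igkc, the kappa light chain, had 0, 267 and 1161 CPM in the Bst2+ libraries, against 0.122, 0 and 0.0523 CPM in the CD25+ libraries, and Jchain, which joins secreted immunoglobulins, had 0, 73.7 and 233 CPM in the Bst2+ libraries, against 0, 0 and 0 CPM in the CD25+ libraries. Both were absent from the counts of Bst2+ replicate 40 and highest in replicate 43, and they did not pass the filter. The B cell surface gene Ms4a1 had 0, 9.77 and 0 CPM in the Bst2+ libraries. Of 7 tested members, 4 were higher and 1 (Irf4) was lower, and the higher count was 6, 4 and 3 without Bst2+ replicate 40, 42 or 43, and 2, 0 and 0 without CD25+ replicate 40, 42 or 43. As 3 of the 4 higher members would not have passed the filter on the CD25+ libraries alone, their count has no weight of its own. Blnk and Bank1, adaptors of B cell receptor signals that myeloid cells may also express, had 4.17, 18.96 and 14.7 CPM and 31.6, 15.7 and 34.98 CPM in the Bst2+ libraries, and Cd22 had 0.775, 8.87 and 20.7 CPM. Blnk lost its call at adjusted p 0.074, 0.0853 and 0.0778 without CD25+ replicate 40, 42 and 43, Bank1 at 0.0506 and 0.0576 without CD25+ replicate 42 and 43, and Cd22 at 0.0502 without Bst2+ replicate 43 and 0.0869, 0.0956 and 0.107 without CD25+ replicate 40, 42 and 43.

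Markers of plasmacytoid dendritic cells were of interest because the gate used BST2. Siglech, the lectin that defines these cells in mice, had 0, 0 and 1.46 CPM in the Bst2+ libraries, against 0, 0 and 0 CPM in the CD25+ libraries, and Klk1 and Cd300c had no count in any of the 6 libraries. Of 17 tested members (23 matched), 5 were higher and 2 lower, and the higher count was 5, 6 and 6 without Bst2+ replicate 40, 42 or 43, and 3, 2 and 2 without CD25+ replicate 40, 42 or 43. Calls in the 2 directions numbered 8 and 2 in the fit over all 15 libraries, 6 and 2 with limma-voom, and 9 and 2 at an unadjusted p under 0.05. Zeb2 had 103, 56.97 and 124 CPM in the Bst2+ libraries, against 8.74, 16.5 and 10.5 CPM in the CD25+ libraries (log2 2.99 ± 0.36; adjusted p = 0.00336) and Grn, which encodes progranulin, 48.3, 42.8 and 122 CPM in the Bst2+ libraries, against 4.52, 7.79 and 6.38 CPM in the CD25+ libraries (log2 3.51 ± 0.47; adjusted p = 0.00464), and macrophages express both. The Grn fold change was 2.86 without Bst2+ replicate 43. Plac8 had 20.2, 64.9 and 13.6 CPM in the Bst2+ libraries, against 2.75, 1.997 and 3.98 CPM in the CD25+ libraries, and its call was lost at adjusted p 0.0749, 0.0903 and 0.0675 without CD25+ replicate 40, 42 and 43. Its fold change was 3.50, and 2.52 without Bst2+ replicate 42. Lair1, an inhibitory receptor, had 49.2, 8.71 and 29.6 CPM in the Bst2+ libraries, against 2.201, 1.797 and 1.57 CPM in the CD25+ libraries (log2 3.97 ± 0.65; adjusted p 0.0571 and 0.0618 without CD25+ replicate 42 and 43), and 3.35 without Bst2+ replicate 40. Ptprs, a receptor phosphatase, was lower by log2 −1.27 ± 0.20 (adjusted p = 0.00998, and 0.0549 without CD25+ replicate 43).

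Some gamma-delta T cell genes were higher, although the gate required the TCR beta chain. The constant gene Trdc had 35.9, 92.4 and 27.99 CPM in the Bst2+ libraries, against 10.9, 10.4 and 12.4 CPM in the CD25+ libraries, Trgc2 68.1, 93.9 and 34.9 CPM in the Bst2+ libraries, against 17.1, 14.03 and 13.8 CPM in the CD25+ libraries, and Trgc4 31.9, 46.8 and 19.1 CPM in the Bst2+ libraries, against 6.05, 3.69 and 2.98 CPM in the CD25+ libraries. Every Bst2+ library was above every CD25+ library for the 3 genes, and replicate 42 was the highest. The fold changes were 2.21 ± 0.45 for Trdc, 2.13 ± 0.36 for Trgc2 and 2.94 ± 0.46 for Trgc4 (log2; adjusted p = 0.0263, 0.0121 and 0.00896). The calls were lost at adjusted p 0.102, 0.124 and 0.109 without CD25+ replicate 40, 42 and 43 for Trdc, 0.0664 and 0.0735 without CD25+ replicate 42 and 43 for Trgc2 and 0.056 and 0.0554 without CD25+ replicate 42 and 43 for Trgc4, and the Trdc fold change was 1.49 without Bst2+ replicate 42. Blk, a kinase of B cells and gamma-delta T cells, had 3.100, 18.8 and 4.198 CPM in the Bst2+ libraries, against 0.183, 0.399 and 0.576 CPM in the CD25+ libraries (adjusted p = 0.047, 0.0942 without Bst2+ replicate 42 and 0.203, 0.212 and 0.177 without CD25+ replicate 40, 42 and 43, and 0.0884 with the replicate block), with a fold change of 4.46, and 3.20 without Bst2+ replicate 42. Of 9 tested members (12 matched), these 4 were higher and 0 lower, and 1 of the 4 would not have passed the filter on the CD25+ libraries alone. The count of higher members was 4, 4 and 5 without Bst2+ replicate 40, 42 or 43, and 2, 0 and 0 without CD25+ replicate 40, 42 or 43. Some of the gamma constant genes are close copies, so the split of reads among those is uncertain. Il23r and Ccr10 had no count in the Bst2+ libraries.

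Natural killer and innate lymphoid markers were present in part. Ncr1, the receptor that defines natural killer cells, had no count in any of the 6 libraries, and Klrb1c had 0, 0.732 and 0 CPM in the Bst2+ libraries, against 0, 0.0499 and 0 CPM in the CD25+ libraries. Of 11 tested (19 matched), 4 were higher and 2 lower, and the lower count was 2, 1 and 2 without Bst2+ replicate 40, 42 or 43, and 0, 0 and 0 without CD25+ replicate 40, 42 or 43, and 1 with the replicate block. Of the 4 higher members 2, Tyrobp and Fcer1g, would not have passed the filter on the CD25+ libraries alone, so the count of higher members has no weight of its own. Tyrobp, an adaptor of natural killer and myeloid receptors, had 27.5, 14.9 and 42.1 CPM in the Bst2+ libraries and no count in the CD25+ libraries (at least 545-fold higher). Fcer1g, also an adaptor of both, had 63.8, 29.3 and 37.7 CPM in the Bst2+ libraries, against 0.244, 0 and 0.733 CPM in the CD25+ libraries (adjusted p = 0.00371). Gzma, the granzyme A gene, had 19.6, 46.1 and 18.8 CPM in the Bst2+ libraries, against 2.57, 3.35 and 2.67 CPM in the CD25+ libraries (log2 3.29 ± 0.47; adjusted p = 0.00643), and Id2, a regulator of innate lymphocytes, had 62.1, 65.5 and 84.4 CPM in the Bst2+ libraries, against 20.7, 26.01 and 24.4 CPM in the CD25+ libraries (log2 1.58 ± 0.21; adjusted p = 0.00456). Kit, the stem cell factor receptor, was lower, with 43.8, 24.5 and 15.2 CPM in the Bst2+ libraries, against 82.03, 83.3 and 104 CPM in the CD25+ libraries (log2 −1.70 ± 0.36; adjusted p 0.0722 without Bst2+ replicate 42 and 0.0749, 0.0909 and 0.131 without CD25+ replicate 40, 42 and 43). Of the 7 tested markers of thymic epithelium and stroma (23 matched), Pdgfrb was higher (10.3, 7.73 and 8.905 CPM in the Bst2+ libraries, against 1.28, 0.349 and 0.68 CPM in the CD25+ libraries), a call lost at adjusted p 0.115, 0.202 and 0.213 without CD25+ replicate 40, 42 and 43 and at 0.083 with the replicate block; it too passed the filter through the Bst2+ libraries. The epithelial genes Krt5, Foxn1 and Psmb11 had no count in the Bst2+ libraries, but other members of the list were present. Epcam had 41.2, 21.3 and 5.41 CPM in the Bst2+ libraries, against 9.475, 11.98 and 11.04 CPM in the CD25+ libraries. Ccl25 had 20.7, 7.41 and 6.04 CPM in the Bst2+ libraries, against 25.1, 22.1 and 17.6 CPM in the CD25+ libraries. Both overlapped between gates and did not pass the test. Of 19 erythroid, platelet and granulocyte genes 1 passed the filter, and 0 were called.

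**Figure D5:**
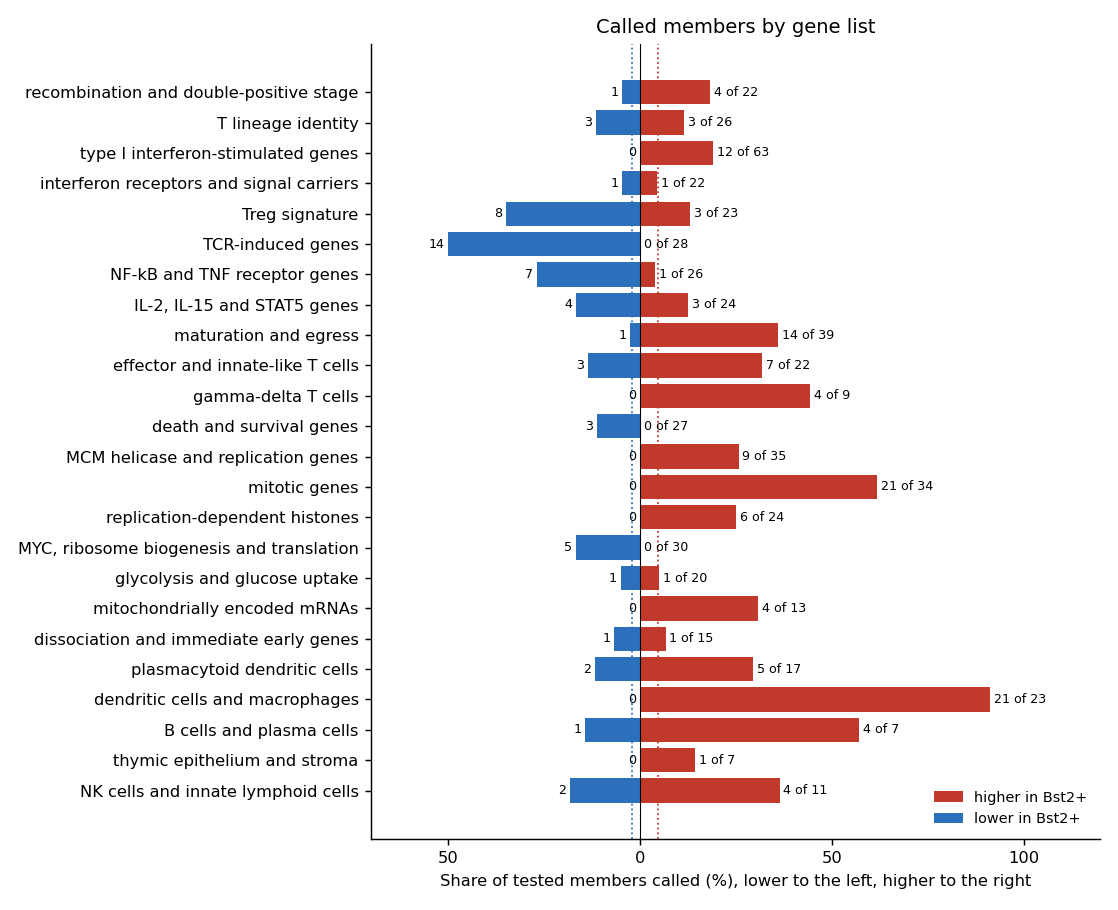
Share of tested members called in each gene list with at least 7 tested members, higher in Bst2+ to the right in red and lower to the left in blue, with counts beside the bars. Dotted lines mark the shares over all 14100 genes tested, 4.62% higher and 2.12% lower. Of the mitotic genes 21 of 34 lie to the right, and of the TCR-induced genes 14 of 28 to the left. The macrophage, B cell and natural killer bars to the right were set in part by the filter, which most or some of their higher members passed only with the Bst2+ libraries. The same holds for 1 or 2 higher members each of the gamma-delta, effector, interferon-stimulated, Treg signature, maturation and stroma lists.

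Mitochondrial transcripts were higher in part in Bst2+ libraries. The mitochondrial ribosomal RNAs mt-Rnr1 and mt-Rnr2 were higher by log2 0.87 ± 0.15 and 1.04 ± 0.15 (adjusted p = 0.0134 and 0.00643), and mt-Rnr1 lost its call at adjusted p 0.0636 and 0.0743 without CD25+ replicate 42 and 43. Of 13 mRNAs encoded in the mitochondrial genome, 4 were higher and 0 lower. COX1, a subunit of cytochrome c oxidase, had 3563, 3373 and 2724 CPM in the Bst2+ libraries, against 1867, 1832 and 1631 CPM in the CD25+ libraries (log2 0.86 ± 0.12; adjusted p = 0.006). The other 3 were ND4, ND5 and CYTB, of complexes I and III, at log2 1.00, 0.81 and 0.85. They lost their calls at adjusted p 0.0534 without Bst2+ replicate 42 and 0.0677, 0.0856 and 0.116 without CD25+ replicate 40, 42 and 43 for ND4, 0.0743 without Bst2+ replicate 42 and 0.126, 0.154 and 0.213 without CD25+ replicate 40, 42 and 43 for ND5 and 0.0661 without Bst2+ replicate 42 and 0.0726, 0.0872 and 0.119 without CD25+ replicate 40, 42 and 43 for CYTB. The mitochondrial mRNA count was 4, 1 and 9 without Bst2+ replicate 40, 42 or 43, and 1, 1 and 1 without CD25+ replicate 40, 42 or 43, and 8 with the replicate block. Calls of these mRNAs, higher and lower, numbered 10 and 0 in the fit over all 15 libraries, 5 and 0 with limma-voom, and 10 and 0 at an unadjusted p under 0.05. With all mitochondrial genes left out of the totals, 630 genes were called higher and 320 lower.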

How the data were processed

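Bulk RNA was read in 15 libraries with the SMARTer Stranded Total RNA-Seq Pico v2 kit, per the labels' protocols. The deposited values are raw read-pair counts per gene for 55573 Ensembl genes (release 97, GRCm38), made with featureCounts 1.6.2, per the file headers, which set a minimum mapping quality of 10, required both mates to map and counted the reverse strand (setting 2). Per the submitters' processing notes, Trimmomatic 0.33 and HISAT2 2.1.0 were used, and featureCounts is given there as version 1.4.6. Every entry names a gene, and all 15 value columns were mapped to a library.

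Genes were named by position in RefSeq of the same build (GRCm38.p6; Jaccard overlap of at least 0.5 with a margin of 0.2 to the next gene, or a lower overlap with a shared end or a sole partner), which named 36886 genes. Of 699 entries in 26 gene lists 693 were matched, and members can stand in several lists. Unnamed genes were tested.

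The 6 libraries were fitted with edgeR 4.0.16 in R 4.3.3 (filterByExpr, TMM factors over all 15 libraries, robust quasi-likelihood test, adjusted p under 0.05), so that the spread averages both gates. Alternatives used limma 3.58.1, DESeq2 1.42.0 and other settings given at the end. On simulated counts the fit recovered most seeded changes where each gate's spread followed its own trend with level. It recovered all of them where the spread was low and equal, and none where the Bst2+ spread was held at a high value at every level. That high value was close to the common spread estimated for the Bst2+ gate (biological coefficient of variation 0.829). The 5 gates share replicate numbers 40, 42 and 43 in the labels, which name 3 biological replicates of a single experiment, so the numbers pair the libraries by design, and a fit with the replicate block was added. Deviations from the gate means had correlations across genes of 0.0334, −0.013 and 0.0204 for equal numbers and −0.0382 to 0.0165 for unequal ones. CPM values use TMM factors. PCR copies cannot be told from molecules, so floors cover counting error only.

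Named genes are the 12 called genes at each end of the fold changes, without overlap between gates and with at least 5 CPM in the higher gate (leaving out receptor segments, pseudogenes, small RNAs, clone names and unnamed genes), up to 5 members per list, and the gate and marker genes. Per Bst2+ library, 8 genes of at least 20 CPM above every CD25+ library with the largest ratio (CPM + 1) to the other 2 were added. The 15 highest and 15 lowest called genes with at least 20 CPM in the lower gate, and untested markers, were added after their values were seen. The members and lists were chosen with earlier results of these data known. Values of some list members are not reported here.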

Additional observations from a re-analysis of the deposited data

How the results depend on the processing

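The number of called genes moved with the treatment of spread, while 0 genes were called in the opposite direction under any alternative. Against 950 calls (651 higher, 299 lower), the fit over all 15 libraries gave 3875 (1716 higher, 2159 lower) and held 942 of the 950. Its share of higher calls thus fell below that of lower calls. DESeq2 gave 2069 (1251 higher, 818 lower), limma-voom with a weight per gate 1008 higher and 359 lower, and a test against a fold of 1.5 gave 365 (305 higher, 60 lower). Without a filter on low counts, 720 were higher and 485 lower. The remaining alternatives stayed within 1.5 times of each count: RLE factors (686 and 267), upper quartile factors (641 and 311), at least 2 CPM in 3 libraries (707 and 306), and mitochondrial genes left out (630 and 320). The median over all genes moved from 0.02 to −0.15 with limma-voom and −0.13 without a filter.

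Leaving out 1 library gave 268 to 1428 calls, 215 to 845 higher and 53 to 583 lower. The CD25+ libraries, when left out, gave the low ends (369, 296 and 268 calls without replicates 40, 42 and 43), where the wider gate holds 3 of 5 libraries. Of 132 called genes that the naming rule gave, 77 kept their call without CD25+ replicate 43, 82 without replicate 42 and 95 without replicate 40, against 116 to 129 without a Bst2+ library. Under the other settings 88 (test against a fold of 1.5) to 132 (RLE factors and DESeq2) kept it, and 0 were reversed.

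With the replicate block, 610 genes were higher and 357 lower, 796 of them among the 950, and the median over all genes was −0.13. Of the named genes, Rag2, Plagl1, Blk, Ighm and Pdgfrb lost their call with the block and Trgc1 and ND1 gained one (adjusted p = 0.0238 and 0.00641); it changed no other call of a named gene. Depth limits genes under about 1 CPM. Of the tested genes, 913 to 1650 were at 0 in a Bst2+ library, against 175 to 202 in a CD25+ library. Bst2+ replicate 42 had 913 at 0 with 12928802 counts, and conventional replicate 42 had 250 at 0 with 12842773 counts. What set the number of genes at 0 was not tested.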

Other observations

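Genes of MYC and ribosome biogenesis were lower in part in Bst2+ cells. Of 30 tested, 5 were lower and 0 higher, with a median fold change of −0.16. Utp20, of the small subunit processome, had 82.9, 84.96 and 82.9 CPM in the Bst2+ libraries, against 175, 180.3 and 189.9 CPM in the CD25+ libraries (log2 −1.12 ± 0.12; adjusted p = 0.00174), nearly level within each gate. Cad, the enzyme that starts pyrimidine synthesis, had 63.2, 81.8 and 65.3 CPM in the Bst2+ libraries, against 136, 151 and 164 CPM in the CD25+ libraries (log2 −1.10 ± 0.16; adjusted p = 0.00604). Nop2, Heatr1 and Mxd1 were lower by log2 −0.80, −0.65 and −1.12, and their calls were lost at adjusted p 0.115, 0.137 and 0.163 without CD25+ replicate 40, 42 and 43 for Nop2, 0.129, 0.139 and 0.155 without CD25+ replicate 40, 42 and 43 for Heatr1 and 0.0743 without Bst2+ replicate 42 and 0.107, 0.146 and 0.145 without CD25+ replicate 40, 42 and 43 for Mxd1. The count of lower genes was 6, 5 and 6 without Bst2+ replicate 40, 42 or 43, and 2, 2 and 2 without CD25+ replicate 40, 42 or 43. Of 20 glycolysis genes, Pdk1, a brake on pyruvate entry into mitochondria, was higher (log2 0.81 ± 0.16; adjusted p 0.0896, 0.116 and 0.14 without CD25+ replicate 40, 42 and 43) and the lactate transporter gene Slc16a3 was lower. Here 1 gene is 5.0% of the list, against 4.62% higher and 2.12% lower over all genes, so the counts say little about glycolysis. Ldha, lactate dehydrogenase, had 284, 294 and 330.3 CPM in the Bst2+ libraries, against 305, 275 and 296 CPM in the CD25+ libraries and did not pass the test (adjusted p = 0.86).

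Among 15 tested genes of dissociation and immediate early response (19 matched), 1 was higher and 1 lower, and 1 was higher and 3 lower with the replicate block. In the main fit 1 gene is 6.67% of this list, against 4.62% higher and 2.12% lower over all genes. Such a count says little about the list. Jun, an AP-1 subunit, had 78.1, 84.6 and 45.99 CPM in the Bst2+ libraries, against 11.1, 12.8 and 11.8 CPM in the CD25+ libraries (log2 2.54 ± 0.28; adjusted p = 0.00221). Zfp36l1, an RNA-binding protein that speeds mRNA decay, had 203, 221 and 264 CPM in the Bst2+ libraries, against 354, 361 and 353 CPM in the CD25+ libraries (log2 −0.63 ± 0.12), and its call was lost at adjusted p 0.1, 0.123 and 0.106 without CD25+ replicate 40, 42 and 43. Of 22 tested genes of effector and innate-like T cells (39 matched), 7 were higher and 3 lower, among them Gzma, Tyrobp, Fcer1g and Rora described above, and the count of higher genes was 8, 7 and 6 without Bst2+ replicate 40, 42 or 43, and 3, 3 and 3 without CD25+ replicate 40, 42 or 43. Of the 7 higher genes, 2 would not have passed the filter on the CD25+ libraries alone. Il12rb2, a chain of the IL-12 receptor, had 12.9, 21.7 and 21.1 CPM in the Bst2+ libraries, against 3.12, 2.85 and 2.62 CPM in the CD25+ libraries (log2 2.70 ± 0.44; adjusted p = 0.0104, and 0.0593, 0.0699 and 0.0743 without CD25+ replicate 40, 42 and 43).

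The 41479 genes under 1 CPM in all 3 CD25+ libraries took 1.07%, 0.833% and 1.59% of the Bst2+ counts, against 0.203% to 0.334% in the 9 libraries of the 3 other gates, which the choice of genes did not use either. The 38258 genes under 1 CPM in all 3 Bst2+ libraries took 0.240% to 0.251% of the CD25+ counts, against 0.237% to 0.331% in the 3 other gates. The share in the gate used to choose each set is fixed by that choice and is not compared.

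Single Bst2+ libraries held genes that the other 2 lacked. Among genes of at least 20 CPM and above every CD25+ library, 12 in replicate 40, 4 in replicate 42 and 16 in replicate 43 were over 10 times the mean of the other 2 Bst2+ libraries (CPM + 1). Apba1 had 24.5, 0 and 0.191 CPM in replicates 40, 42 and 43, and the histone gene H2ac22 had 81.3, 1.63 and 5.98 CPM. Polg2, the accessory subunit of the mitochondrial DNA polymerase, had 0, 26.3 and 0.636 CPM, while the CD25+ libraries held 15.2, 12.9 and 12.6 CPM. Eml6 had 0, 0 and 21.8 CPM, and Ell2, an elongation factor abundant in plasma cells, had 0, 4.96 and 31.1 CPM in the Bst2+ libraries, against 0.306, 1.45 and 2.09 CPM in the CD25+ libraries. These values are a description with no test.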
